A study of Homo sapiens with 8 samples.

Results

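This account covers 10 genes of the TNF receptor complex and its feedback, out of 58735 genes in the deposited tables. They were chosen by name, with earlier results of these data known. TNFRSF1A and TNFRSF1B encode the receptors, TRADD, RIPK1, TRAF2 and BIRC2 encode adaptors and ubiquitin ligases of the complex, and TRAF1, BIRC3, TNFAIP3 and CFLAR are feedback genes. Symbols were matched to the Ensembl identifiers of the tables through GENCODE release 29. Reads were sufficient to test 9 of the 10, among 16528 genes tested in all. TNFRSF1B was not tested.

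The libraries came from U2OS, an established human osteosarcoma line, and measured total RNA by bulk sequencing. All cells carried a short hairpin RNA (shRNA), which is cut by the cell into a guide strand that silences a matching transcript. Control cells carried shControl and KD cells carried shWSB2, directed at the transcript of WSB2, a substrate receptor of a cullin-RING ubiquitin ligase. Each kind of cell was sampled without stimulation and after 5 h of TNF-α, which gave 4 groups of 2 libraries. In the study's methods, knockdown lines were made by lentiviral infection and selection with puromycin. No label says whether the libraries of a group came from separate cultures, so p-values measure the spread between these libraries, which may be technical.

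TNF-α binds TNFR1 (TNFRSF1A) at the cell surface. TRADD and RIPK1 are recruited to its death domain, TRAF2 brings the ubiquitin ligases cIAP1 (BIRC2) and cIAP2 (BIRC3), and the ubiquitin chains they build carry the kinases that activate NF-κB. NF-κB then drives genes that feed back on this complex, among them TNFAIP3, which encodes the ubiquitin-editing enzyme A20, and BIRC3, TRAF1 and CFLAR, which limit cell death. The comparisons address how these genes answer TNF-α, and whether they differ in cells with less WSB2.

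The promoters of the feedback genes are shown first, searched for the κB consensus motif, the 10-base sequence bound by NF-κB. RefSeq windows of GRCh38.p14, from 250 bases before to 50 bases after an annotated start, were matched for 9 of the 10 genes, all except TRADD. The motif was searched on both strands. It was present in 3 of the 17 windows of these genes (17.6%), 1 each of TNFAIP3, BIRC3 and CFLAR, and in 11.3% of all 35116 windows of 300 bases. Counted by gene, 3 of the 9 held it in a window, as did 13.3% of all 27305 genes. The 4 windows below belong to the feedback genes, on the strand of the gene, with the motif in capitals where present.
TNFAIP3, chr6:137867009-137867308, plus strand: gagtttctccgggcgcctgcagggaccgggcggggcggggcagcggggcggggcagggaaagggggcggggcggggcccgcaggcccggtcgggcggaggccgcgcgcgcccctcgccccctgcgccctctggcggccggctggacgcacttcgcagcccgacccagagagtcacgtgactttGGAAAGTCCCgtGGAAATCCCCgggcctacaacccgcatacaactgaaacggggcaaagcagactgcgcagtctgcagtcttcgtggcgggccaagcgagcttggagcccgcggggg
BIRC3, chr11:102317234-102317533, plus strand: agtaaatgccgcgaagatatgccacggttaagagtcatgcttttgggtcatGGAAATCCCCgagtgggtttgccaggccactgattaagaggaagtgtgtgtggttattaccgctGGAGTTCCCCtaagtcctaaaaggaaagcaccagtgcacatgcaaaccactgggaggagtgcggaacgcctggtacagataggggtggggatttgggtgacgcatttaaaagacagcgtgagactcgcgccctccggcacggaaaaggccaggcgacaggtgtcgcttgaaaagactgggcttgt
CFLAR, chr2:201118466-201118765, plus strand: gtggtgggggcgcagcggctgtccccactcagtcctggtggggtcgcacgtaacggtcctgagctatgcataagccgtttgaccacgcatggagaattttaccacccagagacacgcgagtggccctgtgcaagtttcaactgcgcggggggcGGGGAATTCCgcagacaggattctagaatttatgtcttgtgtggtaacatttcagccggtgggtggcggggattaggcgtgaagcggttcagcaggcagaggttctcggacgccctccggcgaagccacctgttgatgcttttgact
TRAF1, chr9:120929122-120929421, minus strand: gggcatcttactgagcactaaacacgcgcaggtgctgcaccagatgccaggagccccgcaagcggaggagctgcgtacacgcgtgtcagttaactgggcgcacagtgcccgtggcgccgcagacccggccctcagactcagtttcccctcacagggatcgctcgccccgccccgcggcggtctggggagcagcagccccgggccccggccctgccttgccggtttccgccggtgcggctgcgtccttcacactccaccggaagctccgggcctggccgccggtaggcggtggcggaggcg
TNFAIP3 held 2 matches, 67 and 55 bases before the start to their first base, and BIRC3 held 2 matches, 199 and 135 bases before it. CFLAR held 1 match, 97 bases before the start, in 1 of its 4 windows. No match was found in the 3 windows of TRAF1, the 2 windows of BIRC2, the 3 windows of RIPK1 or the windows of TNFRSF1A, TNFRSF1B and TRAF2. A match is a description of the letters, and its absence from a window says nothing about binding elsewhere.

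The authors deposited FPKM, in which fragments are divided by gene length and by a library size. The length was that of all annotated exons of a gene, so levels of different genes can be compared only roughly. Each library held between 15601098 and 18677023 reads. The unstimulated KD libraries stood apart from the other 6. Mitochondrial transcripts took 4.10% and 4.42% of their reads, against 1.11% to 2.03% in the others. The annotated GC content of the genes' transcripts, averaged with reads as weights, was 50.6% and 50.1%, against 53.2% to 53.8%. Read sequences were not examined. KD against control without TNF-α gave log2 fold changes that had a Spearman correlation of -0.70 with the GC content of the genes, over 16520 genes from the same libraries, and of 0.04 with TNF-α. For that reason results that use the unstimulated KD libraries are accompanied by values corrected for GC content and gene length. What set these libraries apart was not tested. Of 6 markers of this line 5 were expressed, with VIM between 146 and 240 FPKM and SPARC between 216 and 293 FPKM, while COL1A2 reached at most 0.0934 FPKM. Markers of leukocytes, endothelium and epithelium each stayed at or below 0.482 FPKM in every library.

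WSB2, the target of the shRNA, was at 27.7 and 28.0 FPKM in unstimulated control cells and at 8.38 and 8.52 FPKM in KD cells. With TNF-α the values were 25.0 and 25.3 FPKM in control cells and 9.00 and 9.18 FPKM in KD cells. The groups did not overlap. KD against control gave a log2 fold change of -1.61 (SE 0.0685, adjusted p = 1.19e-04) without TNF-α, or -1.41 with the GC correction, and -1.37 (SE 0.0685, adjusted p = 0.00113) with it. All fold changes were fitted by limma on log2(FPKM + 1), which understates changes of genes near 1 FPKM. The ratio of mean FPKM is therefore given as well for several low genes. In bulk RNA, fewer cells and less RNA per cell cannot be told apart.

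In control cells, TNF-α raised 6 of the 9 tested genes and lowered none, where 3.1% of all tested genes rose and 1.14% fell. All 4 feedback genes rose, as did TRAF2 and BIRC2, while TNFRSF1A, TRADD and RIPK1 did not pass the test. The median log2 fold change of the 9 genes was 0.65, against 0.01 over all tested genes. With libraries scaled to total reads in place of the authors' library size, 60.3% of the genes called in this comparison were higher, against 73.0% in the main fit, and 6 of the 9 genes were again called.

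TRAF1, an adaptor that pairs with TRAF2 and the cIAPs, changed most. It was at 0.983 and 1.17 FPKM in unstimulated control cells and at 43.4 and 43.9 FPKM after TNF-α. Mean FPKM was 40.5 times higher, with a log2 fold change of 4.43 (SE 0.0853, adjusted p = 2.7e-07). Its stimulated libraries differed from each other by far less than from the unstimulated ones.

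TNFAIP3 was at 1.74 and 1.82 FPKM in unstimulated control cells and at 39.8 and 39.3 FPKM after TNF-α. Its mean FPKM was 22.2 times higher, with a log2 fold change of 3.87 (SE 0.0729, adjusted p = 2.7e-07). A20 removes ubiquitin chains from RIPK1 and so restrains signalling from the receptor.

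BIRC3 was nearly silent in unstimulated control cells, at 0.248 and 0.284 FPKM, and reached 8.28 and 7.17 FPKM after TNF-α. Mean FPKM was 29 times higher and the log2 fold change was 2.78 (SE 0.106, adjusted p = 1.24e-05). The gene lies on chromosome 11 from 102317450 to 102339403, directly upstream of its paralog BIRC2 (102347211 to 102378670) on the same strand.

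CFLAR, which encodes the caspase-8 inhibitor c-FLIP, moved from 1.82 and 1.53 FPKM to 3.09 and 3.15 FPKM. The log2 fold change was 0.62 (SE 0.103, adjusted p = 0.0168), and the groups did not overlap. The call was lost with only the 4 libraries compared (adjusted p = 0.141), and without either stimulated control library (0.102 without replicate 1 and 0.124 without replicate 2). The GC correction kept it at an adjusted p of 0.0463, but not together with the replicate block (0.0553) or on log2(FPKM + 0.1) (0.0643).

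Among the adaptors and ligases, BIRC2 was at 4.27 and 5.30 FPKM in unstimulated control cells and at 13.0 and 11.6 FPKM after TNF-α. It rose with a log2 fold change of 1.20 (SE 0.107, adjusted p = 7.96e-04). TRAF2 was at 47.9 and 36.5 FPKM before and at 64.4 and 67.8 FPKM after TNF-α, with a log2 fold change of 0.65 (SE 0.132, adjusted p = 0.0392). The unstimulated TRAF2 libraries differed from each other by more than the stimulated ones, and the call was lost with only the 4 libraries compared (adjusted p = 0.15) and with no filter on low values (0.144). It was also lost when any library other than an unstimulated control library was left out, with adjusted p between 0.0654 and 0.226.

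The signalling receptor and its death-domain partners showed no called change in control cells. TNFRSF1A was at 72.7 and 62.2 FPKM before and at 66.9 and 69.1 FPKM after TNF-α, with a log2 fold change of 0.02 (95% interval -0.19 to 0.23). TRADD was at 12.6 and 10.6 FPKM before and 11.5 and 13.6 FPKM after, at 0.10 (-0.25 to 0.46). RIPK1 was at 6.94 and 7.29 FPKM before and 7.68 and 7.62 FPKM after, at 0.09 (-0.09 to 0.28). For TNFRSF1A and TRADD the groups overlapped, and for RIPK1 they did not. TNFRSF1B, the receptor TNFR2 that is known mainly from blood and endothelial cells, had 25 reads in the 8 libraries together and at most 0.103 FPKM in any of them.

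**Figure D1:**
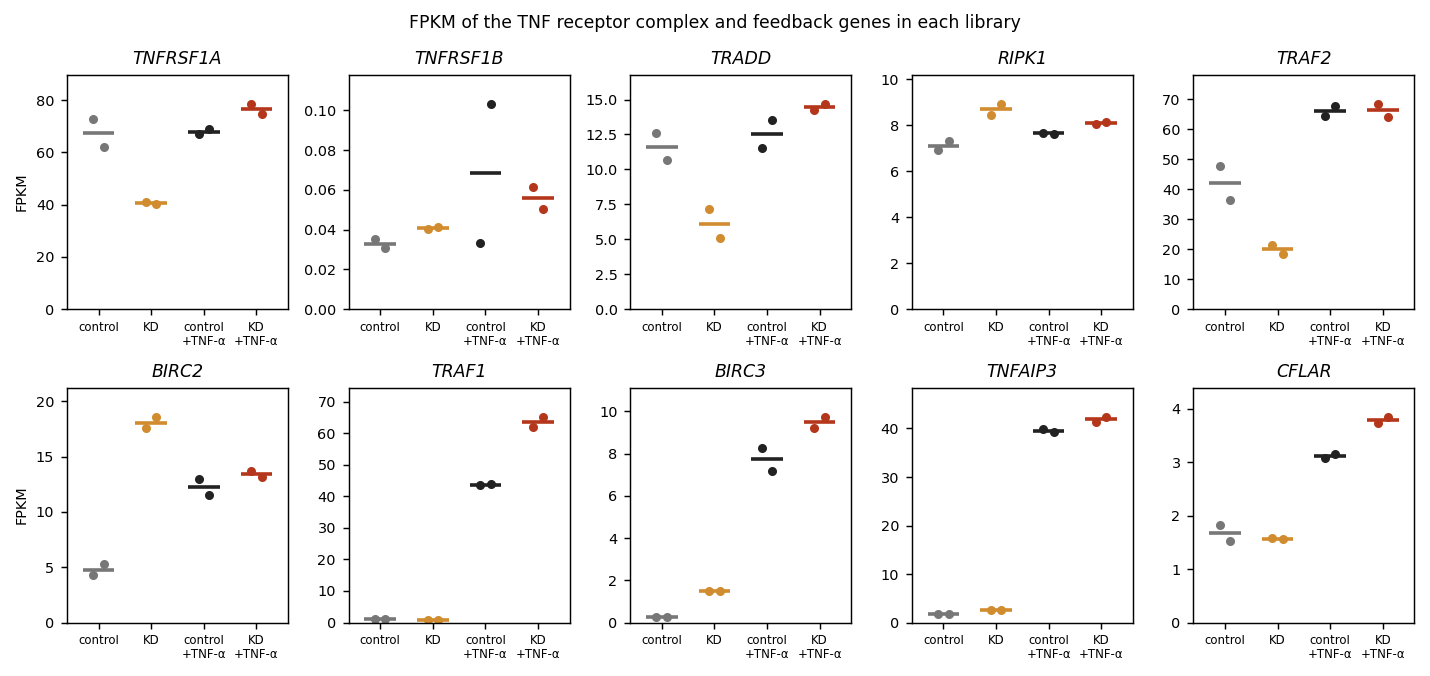
FPKM (vertical axis, linear from 0, its own range in each panel) of the 10 genes in the 4 groups, with 1 point per library and a bar at the mean of 2. TRAF1, BIRC3 and TNFAIP3 were low without TNF-α and high with it, while TNFRSF1A, TRADD and TRAF2 were lowest in unstimulated KD cells.

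Mean FPKM ordered the genes differently with and without TNF-α. In unstimulated control cells TNFRSF1A led at 67.5 ± 7.39 FPKM (SD, n = 2), followed by TRAF2 at 42.2 ± 8.08 FPKM. After TNF-α in control cells TNFRSF1A (68.0 ± 1.52 FPKM, n = 2) and TRAF2 (66.1 ± 2.45 FPKM, n = 2) lay within their spread of each other, and TRAF1 and TNFAIP3 came next at 43.6 ± 0.317 and 39.6 ± 0.355 FPKM. In stimulated KD cells TRAF2 (66.3 ± 3.06 FPKM, n = 2) and TRAF1 (63.4 ± 2.28 FPKM, n = 2) lay within their spread of each other. TNFRSF1B was lowest in every group.

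The first comparison of KD and control cells is the one after TNF-α, in which the libraries had alike read-weighted GC content. None of the 9 tested genes passed the test, where 0.0605% of all tested genes were higher and 0.0545% lower. At an unadjusted p under 0.05 there were 2 of the 9, TRAF1 and BIRC3, and a voom fit of the recovered reads called 1, TRAF1. All 9 log2 fold changes were above 0, with a median of 0.17 against -0.00015 over all tested genes. For 8 of the 9 genes, all except TRAF2, each KD library exceeded each control library, while 23.9% of all tested genes showed this.

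TRAF1 had the largest difference. It was at 43.4 and 43.9 FPKM in stimulated control cells and at 61.8 and 65.0 FPKM in stimulated KD cells, 1.45 times higher by mean FPKM. The log2 fold change was 0.53 (SE 0.0853, 95% interval 0.33 to 0.73), with an unadjusted p of 3.11e-04 from limma and an adjusted p of 0.117. The size of the difference stayed between 0.49 and 0.56 in all alternatives, but its call depended on them. It was called with the GC correction (adjusted p = 0.0425), with voom (0.0327), with only the 4 libraries compared (0.0397), and without unstimulated control replicate 1 (0.0301) or replicate 2 (0.0305).

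BIRC3 was at 8.28 and 7.17 FPKM in stimulated control cells and at 9.23 and 9.73 FPKM in stimulated KD cells, with a log2 fold change of 0.27 (95% interval 0.02 to 0.51, adjusted p = 0.574). CFLAR was at 3.09 and 3.15 FPKM against 3.74 and 3.84 FPKM, at 0.22 (-0.02 to 0.46). TNFAIP3 was at 39.8 and 39.3 FPKM against 41.4 and 42.3 FPKM, at 0.08 (-0.09 to 0.25). The upper bound of each of these intervals stayed below 1 on the log2 scale.

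For the receptor TNFRSF1A the stimulated cells had 66.9 and 69.1 FPKM with shControl and 78.6 and 74.7 FPKM with shWSB2, a log2 fold change of 0.17 (-0.04 to 0.38). TRADD was at 0.20 (-0.16 to 0.55), BIRC2 at 0.13 (-0.12 to 0.37) and RIPK1 at 0.07 (-0.11 to 0.26) on the same scale. TRAF2 was at 0.00494 (-0.30 to 0.31), with 64.4 and 67.8 FPKM in control cells and 68.5 and 64.2 FPKM in KD cells.

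**Figure D2:**
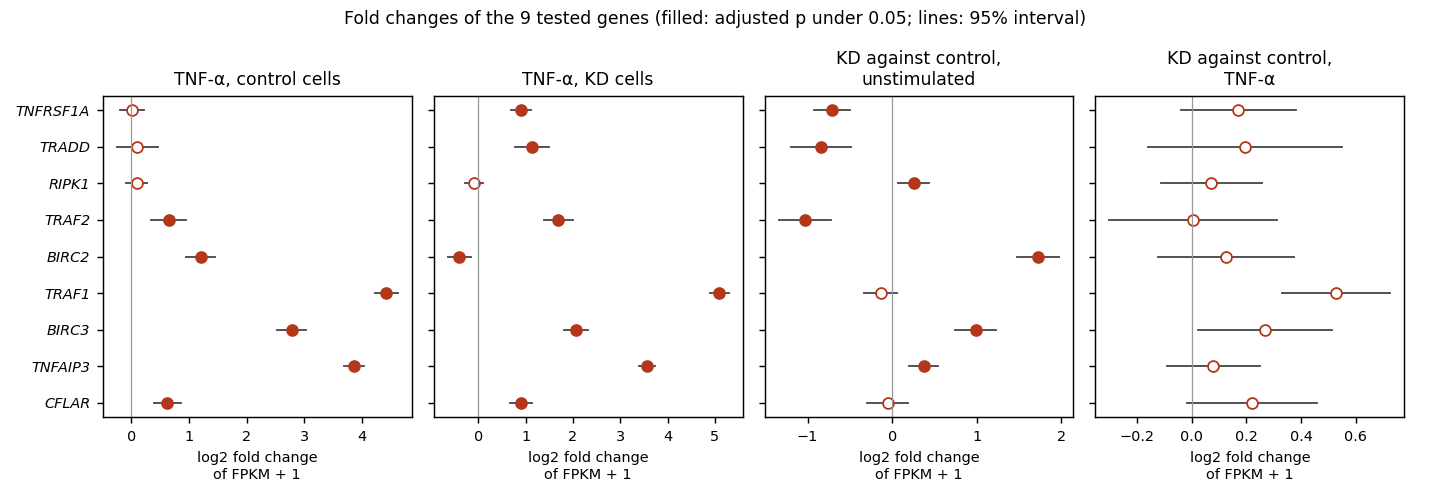
Log2 fold change of FPKM + 1 (horizontal axis, with its own range in each panel) of the 9 tested genes in 4 comparisons, with 95% intervals as lines and filled points at an adjusted p under 0.05. In stimulated cells all 9 points lay above 0 for KD against control and none was called.

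Without TNF-α, KD and control cells differed in 7 of the 9 genes, 4 higher and 3 lower. In this comparison 29.8% of all tested genes were higher and 30.2% lower. BIRC2, BIRC3, TNFAIP3 and RIPK1 were higher in KD cells, and TNFRSF1A, TRADD and TRAF2 were lower. Scaled to total reads, the median of all genes was 0.13 and 65.3% of the genes called were higher, against 49.7% in the main fit. With the GC correction 6 of the 9 genes were called, as were 8448 of the 16520 genes fitted with it.

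BIRC2 showed the largest difference on the log2(FPKM + 1) scale, whereas BIRC3 had the larger ratio of mean FPKM. BIRC2 was at 4.27 and 5.30 FPKM in unstimulated control cells and at 17.6 and 18.6 FPKM in unstimulated KD cells, 3.78 times higher by mean FPKM. The log2 fold change was 1.73 (SE 0.107, adjusted p = 1.19e-04), and 1.15 with the GC correction (adjusted p = 3.31e-04). Transcripts of BIRC2 have 39.7% GC. Among the 1015 tested genes with 38 to 40% GC the median was 0.66 and the 10th to 90th percentile ran from 0.07 to 1.49, below the value of BIRC2. It was the only one of the 9 genes outside the range of genes of like GC content, and the other 8 lay inside. By construction that range leaves out the genes below the 10th and above the 90th percentile.

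BIRC3 was at 0.248 and 0.284 FPKM in control cells and at 1.50 and 1.52 FPKM in KD cells, 5.65 times higher by mean FPKM. Its log2 fold change was 0.98 (SE 0.106, adjusted p = 2.6e-04). With the GC correction it was 0.15 (adjusted p = 0.224) and no longer called. With the same correction on log2(FPKM + 0.1), chosen after seeing the data because the gene was near 0 in control cells, it was 0.94 (adjusted p = 0.00177). Its transcripts have 37.4% GC, and genes of 36 to 38% GC had a median of 0.77.

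TNFAIP3 was at 1.74 and 1.82 FPKM in control cells and at 2.60 and 2.61 FPKM in KD cells, with a log2 fold change of 0.37 (SE 0.0729, adjusted p = 0.00303) and 0.47 after the GC correction. Only the 4 libraries compared gave an adjusted p of 0.0509. RIPK1 was at 6.94 and 7.29 FPKM against 8.44 and 8.93 FPKM, at 0.26 (SE 0.0798, adjusted p = 0.0251) and 0.34 with the correction. The call of RIPK1 was lost with only the 4 libraries compared (adjusted p = 0.12) and when any of the 4 KD libraries was left out. Its adjusted p was 0.0579 without unstimulated KD replicate 1, 0.139 without unstimulated KD replicate 2, 0.0567 without stimulated KD replicate 1 and 0.0568 without stimulated KD replicate 2.

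TNFRSF1A was at 72.7 and 62.2 FPKM in unstimulated control cells and at 41.1 and 40.3 FPKM in unstimulated KD cells. The log2 fold change was -0.71 (SE 0.0904, adjusted p = 4.44e-04), and -0.28 with the GC correction (adjusted p = 0.0093). TRAF2 was at 47.9 and 36.5 FPKM against 21.4 and 18.5 FPKM, at -1.04 (SE 0.132, adjusted p = 4.55e-04) and -0.43 with the correction (adjusted p = 0.00433). TRADD was at 12.6 and 10.6 FPKM against 7.15 and 5.07 FPKM, at -0.84 (SE 0.153, adjusted p = 0.00218). With the correction TRADD was at -0.17 (adjusted p = 0.209). Its transcripts have 64.4% GC, and genes of 64 to 66% GC had a median of -0.66. On log2(FPKM + 0.1) with the correction, TNFRSF1A was at -0.12 and no longer called (adjusted p = 0.163).

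TRAF1 and CFLAR, feedback genes that rose with TNF-α, were not called between unstimulated cells. TRAF1 was at 0.983 and 1.17 FPKM in control cells and at 0.837 and 0.940 FPKM in KD cells, with a log2 fold change of -0.14, and 0.11 with the GC correction. CFLAR was at 1.82 and 1.53 FPKM against 1.59 and 1.56 FPKM, at -0.05. With the correction CFLAR was at -0.37 (adjusted p = 0.0429).

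**Figure D3:**
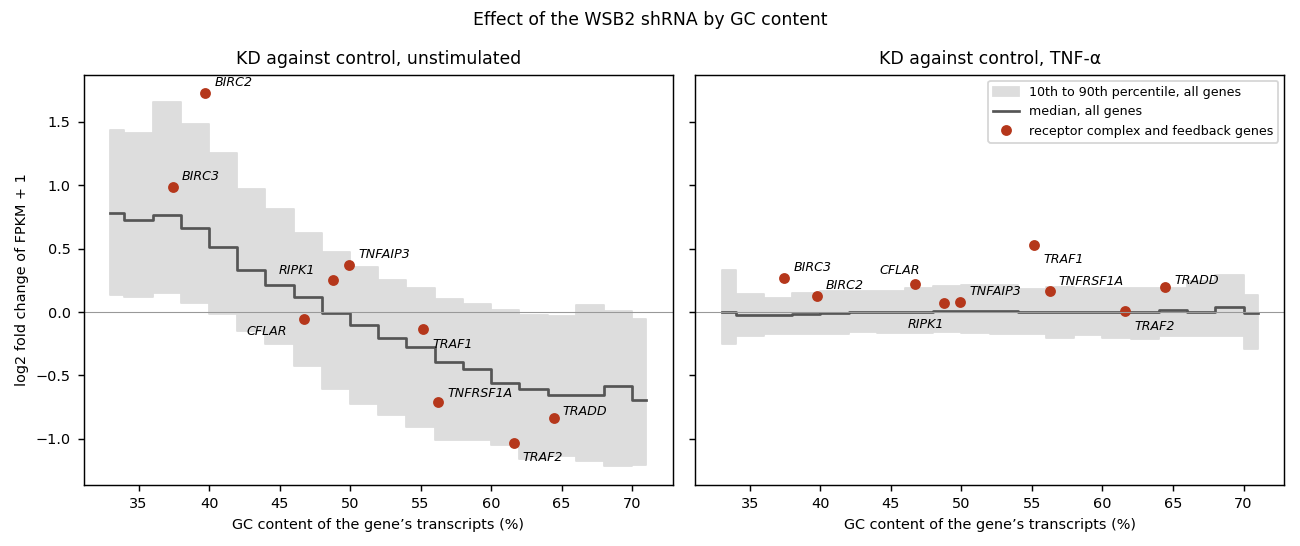
Log2 fold change of KD against control (vertical axis) by GC content of the transcripts in percent (horizontal axis), unstimulated at left and with TNF-α at right. The line is the median of all tested genes in steps of 2% GC, the band their 10th to 90th percentile and the points the 9 genes, of which BIRC2 alone lay outside the band at left. At right TRAF1, BIRC3, CFLAR and TRADD lay above the band, TRADD at 0.195 against an upper edge of 0.192.

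In KD cells, TNF-α raised 7 of the 9 genes and lowered BIRC2, where 31.1% of all tested genes rose and 31.4% fell. This comparison uses the unstimulated KD libraries as its baseline. Scaled to total reads, the median of all genes was -0.19 and 31.4% of the genes called were higher, against 49.8% in the main fit.

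TRAF1 moved from 0.837 and 0.940 FPKM to 61.8 and 65.0 FPKM, with a log2 fold change of 5.09 (SE 0.0853, adjusted p = 1.65e-07), and 4.79 with the GC correction. TNFAIP3 moved from 2.60 and 2.61 to 41.4 and 42.3 FPKM, at 3.57 (adjusted p = 3.21e-07) and 3.47 corrected. BIRC3 moved from 1.50 and 1.52 to 9.23 and 9.73 FPKM, at 2.06 (adjusted p = 1.94e-05) and 2.90 corrected. CFLAR moved from 1.59 and 1.56 to 3.74 and 3.84 FPKM, at 0.90 (adjusted p = 2.23e-04) and 1.16 corrected. Mean FPKM was 71.4 times higher for TRAF1, 16.1 times for TNFAIP3, 6.29 times for BIRC3 and 2.41 times for CFLAR. All 4 feedback genes were called higher under every alternative that used the adjusted p.

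TNFRSF1A, TRADD and TRAF2 also rose in KD cells. TNFRSF1A moved from 41.1 and 40.3 to 78.6 and 74.7 FPKM, at 0.90 (adjusted p = 1.37e-04) and 0.45 with the GC correction. TRADD moved from 7.15 and 5.07 to 14.2 and 14.7 FPKM, at 1.14 (adjusted p = 4.46e-04) and 0.46 corrected. TRAF2 moved from 21.4 and 18.5 to 68.5 and 64.2 FPKM, at 1.69 (adjusted p = 6.61e-05) and 1.07 corrected. BIRC2 moved from 17.6 and 18.6 to 13.7 and 13.2 FPKM, and fell by 0.40 on the log2 scale (adjusted p = 0.012). The direction of BIRC2 depended on the correction, with 0.22 (adjusted p = 0.0579) after it, and the call was lost without unstimulated KD replicate 2 (adjusted p = 0.0728) or stimulated KD replicate 2 (0.0694). RIPK1 was at -0.09 (95% interval -0.28 to 0.09), or -0.16 with the correction, and was called in neither case. Scaled to total reads, RIPK1 was at -0.43 and called lower (adjusted p = 0.00348).

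The response to TNF-α differed between KD and control cells, by the interaction term, for 7 of the 9 genes. It was larger in KD cells for TNFRSF1A, TRADD, TRAF2 and TRAF1 and smaller for BIRC2, BIRC3 and TNFAIP3. In this comparison 23.8% of all tested genes were higher and 22.3% lower. Scaled to total reads, the median of all genes was -0.14 and 32.9% of the genes called were higher, against 51.7% in the main fit. The responses share the same unstimulated libraries as the comparisons above. With the GC correction the difference of TRAF1 was 0.41 (adjusted p = 0.0224) in place of 0.67, and that of BIRC2 was -1.02 (adjusted p = 0.004) in place of -1.60. TRADD was no longer called with the correction, and BIRC3 turned to 0.13 and was not called.

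The FPKM ratios of both paralog pairs came closer to 1 with TNF-α. FPKM of BIRC3 was 0.0582 and 0.0536 times that of BIRC2 in unstimulated control cells and 0.640 and 0.619 times after TNF-α. In KD cells the ratio went from 0.0850 and 0.0816 to 0.674 and 0.737. FPKM of TRAF1 was 0.0205 and 0.0322 times that of TRAF2 in unstimulated control cells and 0.675 and 0.647 times after TNF-α. In unstimulated KD cells it was 0.0391 and 0.0509 times that of TRAF2. In stimulated KD cells it was 0.903 and 1.01 times that of TRAF2, above both stimulated control libraries. A ratio within a library does not depend on the library size used for scaling, but these ratios were not corrected for GC content.

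Around the complex, 34 further genes were listed by role and 32 were tested, LTA and RIPK3 having too few reads. In control cells TNF-α raised 10 of the 32 and lowered none, where 3.1% of all tested genes rose and 1.14% fell. The median log2 fold change of the 32 was 0.22, against 0.01 over all tested genes. The 5 NF-κB subunits and inhibitors on the list, NFKBIA, NFKBIE, NFKB1, NFKB2 and RELB, all rose. Other subunits and inhibitors were not listed. NFKBIE and NFKBIA, inhibitors that hold NF-κB in the cytoplasm, were at 2.86 and 2.76, and the subunit RELB was at 2.61. Of 8 brakes on the complex 3 rose, TNIP1, an A20 partner, at 1.74, the deubiquitinase CYLD at 0.74 and its adaptor SPATA2 at 0.45. Of 9 kinases and their adaptors 1 rose, IKBKE at 1.88. TNF itself was between 0 and 0.119 FPKM without TNF-α and at 5.59 and 5.84 FPKM with it, at 2.67 (adjusted p = 2.65e-05). None of the 3 genes of the linear ubiquitin ligase and none of the 5 tested genes of the death arm passed the test.

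In KD cells TNF-α raised 17 of the 32 and lowered 9, where 31.1% of all tested genes rose and 31.4% fell. With the GC correction 18 were higher and 5 lower, where 9211 of 16520 genes were called. With the correction on log2(FPKM + 0.1) 18 were called in all, where 7256 of 16520 genes were. NFKBIE was at 3.92, RELB at 3.81 and NFKBIA at 3.34, or 3.28, 3.13 and 2.87 corrected. TNIP1 rose by 2.73, or 2.29 corrected, whereas TAX1BP1, another A20 partner, was at -1.40, or -0.71 corrected. Among the kinases and adaptors IKBKE was at 2.48, TAB3 at -1.18 and TBK1 at -1.06, or 1.92, -0.44 and -0.38 corrected.

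Without TNF-α, KD cells had 11 of the 32 higher and 14 lower than control cells, where 29.8% of all tested genes were higher and 30.2% lower. The kinase TBK1 was at 1.47, or 0.83 with the GC correction. TAB2 and TAB3, which carry the kinase TAK1 to ubiquitin chains, were at 1.24 and 1.22, or 0.67 and 0.43 corrected. All 3 genes of the linear ubiquitin ligase were called lower, SHARPIN at -1.06, RBCK1 at -0.63 and RNF31 at -0.36. With the correction SHARPIN alone of these was called, at -0.39, and RBCK1 was at -0.03 (adjusted p = 0.84) and RNF31 at 0.12 (adjusted p = 0.181). In the death arm the adaptor FADD was at -0.90, or -0.32 corrected. The caspase inhibitor XIAP was at 0.89, or 0.14 corrected and no longer called (adjusted p = 0.285). RELB was at -1.16 and NFKBIE at -1.01, or -0.50 and -0.37 corrected. The 11 genes that were higher had a median GC content of 40.7% and the 14 that were lower one of 60.6%. With the GC correction 13 of the 32 were called, 6 higher and 7 lower, where 8448 of 16520 genes were called. With the correction on log2(FPKM + 0.1) 10 were called, where 6216 of 16520 genes were.

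With TNF-α, none of the 32 passed the test between KD and control cells, by limma or by voom, and 2 had an unadjusted p under 0.05. Of all tested genes 0.0605% were higher and 0.0545% lower by limma. The median log2 fold change of the 32 was 0.07. The interaction was called for 23 of the 32, with 14 higher and 9 lower, where 23.8% of all tested genes were higher and 22.3% lower. With the GC correction it was called for 13 of the 32 and for 5581 of 16520 genes. Windows before the start were matched for 28 of the 34 genes, and 8 of them held the κB motif, as did 13.3% of all genes. These were NFKBIA, NFKB1, NFKB2, TNIP1 and CYLD, which rose with TNF-α in control cells, ADAM17 and TAB2, which were not called there, and LTA, which was not tested. The other genes that rose there, TNF, IKBKE, SPATA2, NFKBIE and RELB, held no match or had no window. By window, 10 of 46 held it (21.7%), against 11.3% of all windows.

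**Figure D4:**
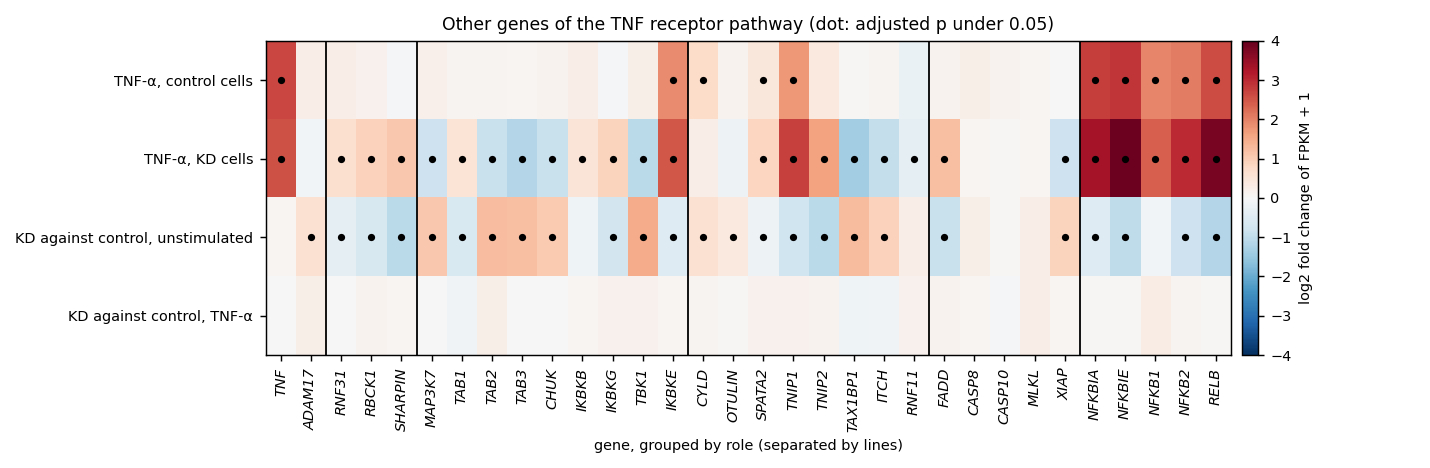
Log2 fold change of FPKM + 1 (colour) of the 32 tested genes listed around the complex, with 4 comparisons as rows, genes as columns grouped by role, and dots at an adjusted p under 0.05. Control cells showed 10 rises with TNF-α, KD cells showed 17 rises and 9 falls, and no gene carried a dot for KD against control with TNF-α.

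Levels across libraries were compared for the 3 genes with the strongest response to TNF-α. Over the 8 libraries and 11624 genes with a mean of at least 1 FPKM, log2(FPKM + 1) of TRAF1 was most alike to that of MMP9 (Pearson's r 0.999) and C3 (0.999). TNFAIP3 was nearest to CCL2 (0.998), CSF2 (0.998) and PTX3 (0.997), and BIRC3 to GBP1 (0.991), TIFA (0.990) and ZNF697 (0.990). The points are 4 groups of 2 libraries, so each r mainly reflects the step with TNF-α.

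Read counts of 4 genes may be affected by overlap with a gene on the opposite strand, since the strand used for counting is not given in the sources used here. TRADD shares 126 exon bases with FBXL8, which had 980 reads in all libraries against 3808 of TRADD. RIPK1 shares 238 bases with AL031963.3 (192 reads against 4556), TNFAIP3 shares 95 with AL357060.1 (250 against 14061) and CFLAR shares 777 with CFLAR-AS1 (132 against 7623). CFLAR also shares 1488 bases with the pseudogene IMPDH1P10, which had 2 reads.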

How the data were processed

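Total RNA of U2OS cells was sequenced in 8 libraries, grouped by their labels into shControl and shWSB2 cells with and without TNF-α. The authors deposited FPKM values for 58735 genes per library. The submitters' processing notes name CASAVA 1.8, fastp, HISAT2 2.0.5, featureCounts 1.5.0-p3, DESeq2 1.20.0 and GRCh38, with no role or order. The study's methods name edgeR at P below 0.05 and an absolute log2 fold change over 1, which was not run on FPKM values. Each value times gene length was a whole number of reads (tolerance 0.05 reads) for 100% of values, between 15601098 and 18677023 reads per library. The authors' library size was 1.21 times that total in both unstimulated KD libraries and 0.925 to 1.03 times in the other 6. Identifier, position and exon length of all 58735 genes matched GENCODE release 29.

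Differences of log2(FPKM + 1) were tested in R 4.3.3 by limma 3.58.1, with a mean per group over all 8 libraries (4 residual degrees of freedom), a variance trend, and Benjamini-Hochberg adjustment over 16528 genes, kept where 2 or more libraries reached 10 reads (at median depth) and the sum was 15 or more. Genes were called at an adjusted p under 0.05. Motifs and plots used matplotlib 3.10.9, numpy 2.4.6 and pandas 2.3.3 under Python 3.11.15. The script was tested on simulated data.

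The members and lists were chosen with earlier results of these data known. Named are the 10 members, WSB2, at most 3 called genes per role and comparison of the 34 pathway genes, and the 3 nearest patterns to each of TRAF1, BIRC3 and TNFAIP3, of which 1 is not reported here. Alternatives were a pseudocount of 0.1, no filter, scaling to total reads, a spline correction on GC content and length (5 degrees of freedom each), voom on the recovered reads, only the libraries compared, the thresholds of the methods, the replicate number as a block, with and without the GC correction, and each library left out. Chosen after seeing the data were the GC correction on log2(FPKM + 0.1) and a crossed replicate block.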

Additional observations from a re-analysis of the deposited data

Results flagged for a closer look

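The interaction term gave a different response to TNF-α in KD than in control cells for 7 of the 9 tested genes, with 23.8% of all tested genes higher and 22.3% lower. The values are differences of the log2 fold change in KD minus control cells, from limma. Each equals KD against control with TNF-α minus that without, so it is not separate from the unstimulated comparison above. TNFRSF1A differed by 0.88 (SE 0.128, adjusted p = 0.00224), and by 0.45 with the GC correction. TRADD differed by 1.03 (SE 0.216, adjusted p = 0.00699), and by 0.36 with the correction, no longer called (adjusted p = 0.0883). TRAF2 differed by 1.04 (SE 0.187, adjusted p = 0.00403), and by 0.44 with the correction. TRAF1 differed by 0.67 (SE 0.121, adjusted p = 0.00415), and by 0.41 with the correction. On log2(FPKM + 0.1) with the correction these 4 calls were lost, with TNFRSF1A at 0.28 (adjusted p = 0.0556), TRADD at 0.25 (0.28), TRAF2 at 0.25 (0.121) and TRAF1 at 0.39 (0.097).

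BIRC2 differed by -1.60 (SE 0.151, adjusted p = 0.00111), by -1.02 with the correction, and by -0.96 on log2(FPKM + 0.1) with it (adjusted p = 0.00719). BIRC3 differed by -0.72 (SE 0.149, adjusted p = 0.00683), by 0.13 with the correction (adjusted p = 0.456), and by -0.62 with the correction on log2(FPKM + 0.1) (adjusted p = 0.0416). TNFAIP3 differed by -0.29 (SE 0.103, adjusted p = 0.0491), by -0.41 with the correction, and by -0.63 on log2(FPKM + 0.1) with it (adjusted p = 0.00868). The call of TNFAIP3 was lost under the replicate block (adjusted p = 0.0756). It was also lost without either replicate of unstimulated KD, stimulated control or stimulated KD cells, with adjusted p between 0.103 and 0.177. RIPK1 and CFLAR, not called for the interaction in the main fit, were each called under 2 of 8 other settings, RIPK1 lower and CFLAR higher. The part of the unstimulated KD libraries, which stood apart in read-weighted GC content and mitochondrial reads, in these differences was not tested.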

How the results depend on the processing

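Over the 9 genes and 5 comparisons, 353 of 396 values under other settings and 331 of 360 with a library left out kept their direction and their side of the threshold. By the thresholds of the methods, members called numbered 5 in place of 8 for TNF-α in KD cells, 2 in place of 7 for KD without TNF-α and 3 in place of 7 for the interaction, and pathway genes 14 in place of 26, 10 in place of 25 and 12 in place of 23. With the GC correction, with or without the replicate block, 13 pathway genes were called for KD without TNF-α and 13 for the interaction. Without the block 8448 and 5581 of all 16520 genes were called in these comparisons. With the correction on log2(FPKM + 0.1), 10 pathway genes were called for KD without TNF-α, and 4 members and 6 pathway genes for the interaction. Of all 16520 genes 6216 and 3137 were called there. For KD with TNF-α, 1 member (TRAF1) in place of 0 was called with the GC correction, with voom and with only the 4 libraries compared, and 0 to 1 with a library left out. WSB2 with TNF-α stayed between -1.39 and -1.36 with a library left out, and without stimulated KD replicate 2 its adjusted p was 0.0519. Directions turned as follows. For TNF-α in control cells, TNFRSF1A was at -0.0608 scaled to total reads, -0.10 without unstimulated replicate 2 and -0.00710 without stimulated replicate 2, and TRADD at -0.00720 and -0.00502 without these libraries (all left-out libraries: -0.00720 to 0.21). For TNF-α in KD cells BIRC2 was at 0.22 with the GC correction, with and without the block, and 0.42 on log2(FPKM + 0.1). For KD without TNF-α, TRAF1 was at 0.00145 scaled to total reads, 0.11 with the GC correction, with and without the block, and 0.13 on log2(FPKM + 0.1), and CFLAR at 0.12 scaled to total reads and 0.0257 without unstimulated control replicate 1 (-0.14 to 0.0257 over all). For KD with TNF-α TRAF2 was at -0.0150 scaled to total reads and at -0.0323 and -0.0415 without replicate 1 of stimulated control or KD cells (-0.0415 to 0.0513 over all). For the interaction BIRC3 was at 0.13 with the GC correction, with and without the block. The cause was not tested. Groups share replicate numbers, but deviations of same-numbered libraries correlated between -0.191 and 0.350, and 2 libraries a group do not show that numbers pair them. The replicate block, without the GC correction, left 6, 8, 7, 0 and 6 members called for TNF-α in control cells, TNF-α in KD cells, KD without TNF-α, KD with TNF-α and the interaction. Together with the GC correction it left 5 for TNF-α in control cells, CFLAR being lost. With the numbers crossed in stimulated control cells, 6 members and 10 pathway genes were called for TNF-α in control cells. TNFRSF1B, with 25 reads, could not be compared at this depth.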
